A study of Drosophila melanogaster with 8 samples.

Results

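Cytochrome P450 genes are named Cyp followed by a family number, a subfamily letter and a gene number. Genes were taken as members where a probe set of the array carried exactly 1 gene symbol beginning with Cyp and a digit, and the probe set with the highest mean over the 8 arrays stood for its gene. The rule found 83 genes among 11982 genes with a probe set of 1 symbol. Of these, 2 are not P450 genes: Cyp1 and Cyp40 encode cyclophilins, which are protein folding enzymes, and they are given apart. Of the 81 P450 genes, 52 passed a filter on low values.

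P450 enzymes are heme proteins that insert an oxygen atom into their substrates. Those of the endoplasmic reticulum draw electrons from a reductase and from cytochrome b5, and those of mitochondria, among them the Cyp12 family, draw them from ferredoxin. In insects the Cyp6 and Cyp9 families are best known for the breakdown of insecticides and plant toxins, members of the Cyp4 family for the oxidation of fatty acids and the making of cuticular hydrocarbons, and a smaller set for the synthesis and inactivation of the moulting hormone. In the fly head, P450 enzymes are known from fat body, antenna and glia, and some of them are under the circadian clock.

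RNA of fly heads was measured on 8 Affymetrix Drosophila Genome 2.0 arrays, 1 for each of 4 strains at 2 times of day, in a study of the clock-regulated microRNA cluster 959-964. Flies of the overexpression strain were yw ; tim-gal4, UAS-mir-cluster/CyO, in which the gal4 driver of the clock gene timeless expresses the cluster wherever timeless is active, and flies of the control with the driver only were yw ; tim-gal4/CyO. The second chromosome balancer CyO was thus present in both yw strains. Knockout flies were w1118 ; mir959-962-KO, in which only miRNAs 959 to 962 of the cluster are deleted, and their control was w1118. Adult flies were collected at ZT16 (16 h after lights on, in the dark phase) or ZT4 (4 h after lights on, in the light phase), after 3 days of 12 h light and 12 h dark, frozen, and their heads taken for RNA. Sex, age and the number of heads are not given in the sources used here.

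There were no replicates. Values are log2 intensities, in which 1 unit is a 2-fold difference, and 2.32 was the lowest value on each array. A value near it was not seen above background and is not quantitative. Differences between strains or times were tested with limma in 1 fit over all 8 arrays, on the 8300 probe sets that reached 4 on at least 2 arrays. Its error is the part of the day-night change that differs between strains, so its p-values measure that spread and not the spread between flies. A gene was called at a Benjamini-Hochberg adjusted p under 0.05 over all probe sets tested. The share of probe sets at 4 or more was 39.8 to 40.8% on the 8 arrays. Markers of the gut, accessory gland and testis stood high on the arrays of knockout ZT16 and tim-gal4 control ZT16 and on no other array beyond 1 gene, although all samples are labelled as heads. Of 21 gut digestive enzymes, 10 reached 4 on the knockout ZT16 array, 9 on the tim-gal4 control ZT16 array and 0 on the other 6. Photoreceptor markers reached 4 on all 8 arrays, 4 of 4.

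In heads, 39 of the 81 P450 genes reached 4 on all 8 arrays, 14 on some and 28 on none. The Cyp9 and Cyp12 families passed the filter with all members, 5 of 5 and 6 of 6. The Cyp6 family passed with 17 of 23 genes and the Cyp4 family with 16 of 22. Of 4 Cyp28 genes, 2 passed, and of 19 genes of families with 3-digit numbers, 5 passed: Cyp313a1, Cyp305a1, Cyp309a1, Cyp309a2 and Cyp312a1. Of the other 2 genes, Cyp18a1, which inactivates the moulting hormone ecdysone, passed and Cyp49a1 did not. Cyp301a1 and Cyp303a1, known for roles in the cuticle and in sensory bristles of developing flies, were among the 28 genes under 4 on every array. Cyp6v1, which reached 4 on 1 array, and Cyp4aa1 stood just outside the filter, with highest values of 4.14 and 3.99. A probe set that carries the symbols of both shn and Cyp6v1 measured 8.39 to 9.33 over the 8 arrays. The part of Cyp6v1 in that signal was not tested. The enzymes of ecdysone synthesis carry other symbols. Of these, dib, sad, spo, spok and shd had a probe set, and the highest value among them on any array was 2.90, for shd in overexpression flies at ZT4.

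The genes with the highest means over the 8 arrays were, in the order of their families, Cyp4e2, Cyp4p1, Cyp4d21, Cyp6d5, Cyp6g1, Cyp9b2, Cyp9f2, Cyp28a5, Cyp28d1 and Cyp313a1. Signals of different probe sets depend on their probes, so these levels carry no order among genes. Cyp313a1, of unknown substrate, measured 11.31 at ZT16 and 11.74 at ZT4 in overexpression flies, 11.50 and 11.43 in tim-gal4 control flies, 10.52 and 11.45 in knockout flies and 11.81 and 11.37 in w1118 flies. It was called in none of the comparisons. Cyp9f2 stayed between 9.82 and 10.42 and Cyp28a5 between 8.93 and 9.25 over the 8 arrays, and neither was called. Cyp4g15, a Cyp4 gene known for expression in the nervous system, ranged from 8.17 to 8.67 and was not called either.

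**Figure D1:**
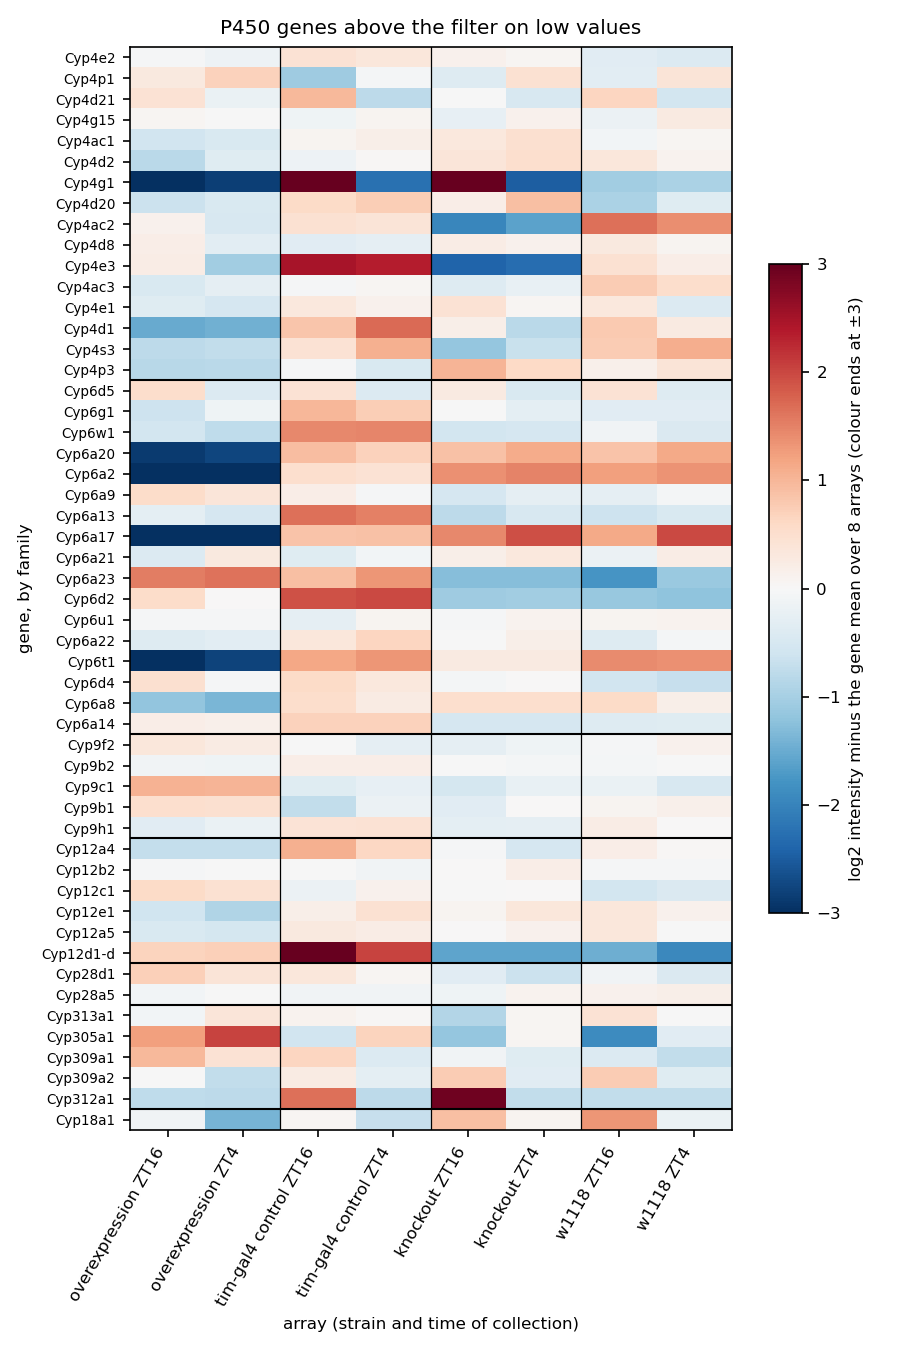
Each row is 1 of the 52 P450 genes that passed the filter, ordered by family (thick lines) and by mean level, and each column is 1 array. Colour gives the log2 intensity minus the mean of the gene over 8 arrays, with colours ending at 3 in both directions. The overexpression columns are darkest blue for Cyp6a20, Cyp6a2, Cyp6a17, Cyp6t1 and Cyp4g1. Cyp4g1 is darkest red on the ZT16 arrays of the tim-gal4 control and the knockout. Those arrays raise the mean of Cyp4g1, so all its other arrays lie below that mean, and Cyp4g1 was not called in overexpression flies.

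Against the tim-gal4 control, overexpression heads held less RNA of 22 P450 genes, 11 of them in the Cyp6 family. The 22 that fell were among 52 tested, where 6.18% of all probe sets fell, and 5 of the 52 rose, where 14.3% of all rose (limma). The median difference was -0.52 over the P450 genes and 0.10 over all probe sets, and 40.4% of the P450 genes differed at least 2-fold against 10.8% of all. At least 2-fold at both times, 14 genes were lower (2.23% of all probe sets) and 2 were higher (2.41% of all). Cyp6a14 passed the filter through the tim-gal4 control arrays alone, so its fall was partly set by the filter, and 21 falls are left without it.

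In bulk heads, fewer cells of a type and less RNA per cell cannot be told apart. Of 5 fat body markers, Lsp2, a storage protein, fell with these genes, and measured 6.85 at ZT16 and 5.83 at ZT4 in overexpression flies, against 9.45 and 9.72 in tim-gal4 control flies. Its fall was 3.24 (SE 0.34, limma adjusted p = 0.00734). The other 4 were not called, with -0.44 for Yp2, -0.37 for apolpp, -0.03 for Yp1 and 0.17 for Yp3, and all 5 stayed at 4 or more on all 8 arrays. None of 5 neuron markers was called, with a median of 0.27. The part of fat body in the falls of the P450 genes was not tested. Cyp6a17, Cyp6a2 and Cyp6a20, among other genes that fell, lie on the second chromosome. The genotypes of overexpression and control flies differ on that chromosome. The part of strain differences other than the cluster in these falls, or in the knockout differences below, was not tested.

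The falls lay in 11 of 17 Cyp6 genes, with no Cyp6 gene rising and a family median of -1.23. In the Cyp4 family 6 of 16 genes fell and 1 rose, in the Cyp12 family 4 of 6 fell and 1 rose, and in the Cyp9 family 1 of 5 fell and 2 rose. Neither of the 2 Cyp28 genes was called, and of the 5 genes with 3-digit family numbers, Cyp305a1 rose. Of the 22 genes that fell, 11 had both overexpression arrays below all 6 arrays of the other strains, and 12 had both tim-gal4 control arrays above all 6 others, with 3 genes in both sets. Over all probe sets tested, 10.7% had the first pattern and 5.61% the second. The 22 genes were picked as lower in overexpression than in the tim-gal4 control, which favours both patterns. The shares among all probe sets that fell are not given here.

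Cyp6a17, known for a role in the temperature preference of flies, measured 2.44 at ZT16 and 2.53 at ZT4 in overexpression flies, against 7.45 and 7.48 in tim-gal4 control flies. In knockout flies it measured 8.05 and 8.53 and in w1118 flies 7.75 and 8.58 at the same times. Both overexpression arrays were near the lowest value and the other 6 were all above 7. The fall was 4.98 (SE 0.22, limma adjusted p = 0.000930), a size that is not quantitative because the overexpression values lie near background.

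Cyp6t1 followed the same pattern, with 2.32 at ZT16 and 2.60 at ZT4 in overexpression flies, against 6.54 and 6.70 in tim-gal4 control flies. Its levels were 5.66 and 5.65 in knockout flies and 6.79 and 6.76 in w1118 flies. It fell by 4.16 (SE 0.12, limma adjusted p = 0.000368), again to near background, where the size is not quantitative.

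Cyp6a2 is a gene of insecticide resistance that is overexpressed in some resistant strains. It stood at 3.65 at ZT16 and 3.92 at ZT4 in overexpression flies, against 7.46 and 7.39 in tim-gal4 control flies, with 8.32 and 8.45 in knockout and 8.19 and 8.32 in w1118 flies. Its fall was 3.64 (SE 0.12, limma adjusted p = 0.000515), to values under 4 on both overexpression arrays. Cyp6a20, known as a modifier of aggression between males, measured 4.52 at ZT16 and 4.63 at ZT4 in overexpression flies, against 8.32 and 8.07 in tim-gal4 control flies. All 4 arrays of the knockout and w1118 lay between 8.25 and 8.53 for Cyp6a20, far from the overexpression arrays. Its fall was 3.62 (SE 0.16, limma adjusted p = 0.000930), or 12.3-fold.

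For Cyp6w1, Cyp6a13 and Cyp6d2, which also fell, the tim-gal4 control stood above the other 3 strains. Cyp6w1, an insecticide resistance gene, measured 7.29 at ZT16 and 7.10 at ZT4 in overexpression flies, against 9.30 and 9.31 in tim-gal4 control flies, with 7.31 and 7.35 in knockout and 7.74 and 7.41 in w1118 flies. It fell by 2.11 (SE 0.13, limma adjusted p = 0.00230), a 4.31-fold difference. Cyp6a13 measured 6.37 at ZT16 and 6.15 at ZT4 in overexpression flies, against 8.32 and 8.16 in tim-gal4 control flies, and fell by 1.98 (SE 0.17, limma adjusted p = 0.00461). Knockout and w1118 flies, with 5.87 to 6.20, overlapped the overexpression flies for Cyp6a13. Cyp6d2, linked to tolerance of the plant alkaloid camptothecin, measured 6.31 at ZT16 and 5.76 at ZT4 in overexpression flies, against 7.67 and 7.74 in tim-gal4 control flies. It fell by 1.67 (SE 0.18, limma adjusted p = 0.00779), and its knockout and w1118 arrays lay lower still, between 4.56 and 4.71.

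In the Cyp4 family, Cyp4e3, linked to permethrin tolerance, measured 5.33 at ZT16 and 4.07 at ZT4 in overexpression flies, against 7.59 and 7.47 in tim-gal4 control flies. It fell by 2.82 (SE 0.34, limma adjusted p = 0.00909). Both tim-gal4 control arrays of Cyp4e3 lay above the other 6, with 2.70 and 2.82 in knockout and 5.56 and 5.31 in w1118 flies. Cyp4d1 stood at 2.67 at ZT16 and 2.75 at ZT4 in overexpression flies, against 5.01 and 5.89 in tim-gal4 control flies, and fell by 2.74 (SE 0.44, limma adjusted p = 0.0166). The overexpression values of Cyp4d1 lie near background, so the size of its fall is not quantitative.

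The mitochondrial Cyp12d1-d measured 4.93 at ZT16 and 4.99 at ZT4 in overexpression flies, against 7.39 and 6.29 in tim-gal4 control flies, and was near background in knockout flies (2.69 and 2.68) and w1118 flies (2.79 and 2.33). Its fall was 1.88 (SE 0.30, limma adjusted p = 0.0160). Cyp12d1-d has a near-identical copy, Cyp12d1-p. A probe set that carries both symbols differed by -2.14 (SE 0.47, limma adjusted p = 0.0348), and its signal cannot be assigned to either copy. On the probe set of both symbols the knockout and w1118 arrays reached 5.40 and 5.45 at ZT16, against 2.99 and 3.76 at ZT4. The probe set of Cyp12d1-d alone stayed near background in these strains at both times, and the cause of this disagreement was not tested.

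The other 12 falls ran from 0.48 for Cyp4e2 to 1.66 for Cyp6a8. Among them, Cyp6g1, the gene of DDT resistance, measured 8.75 at ZT16 and 9.24 at ZT4 in overexpression flies, against 10.35 and 10.10 in tim-gal4 control flies, with 9.36 and 9.07 in knockout and 9.02 and 9.04 in w1118 flies. It fell by 1.23 (SE 0.21, limma adjusted p = 0.0201). Cyp12a4, whose overexpression gives resistance to the growth regulator lufenuron, measured 7.59 at ZT16 and 7.59 at ZT4 in overexpression flies, against 9.36 and 8.92 in tim-gal4 control flies. It fell by 1.55 (SE 0.15, limma adjusted p = 0.00636), and its neighbour Cyp12a5 fell by 0.76 (SE 0.14, limma adjusted p = 0.0231). The 9 others were Cyp6a8, Cyp4s3, Cyp4d20, Cyp12e1, Cyp6a22, Cyp9h1, Cyp4ac1, Cyp6a14 and Cyp4e2. Cyp12e1 gave the same result on its second probe set, -1.01 beside -1.07 on the first.

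The 5 genes that rose were Cyp305a1, Cyp9c1, Cyp4p1, Cyp9b1 and Cyp12c1, and in 4 of them both overexpression arrays lay above the other 6. Cyp305a1 measured 8.20 at ZT16 and 9.0 at ZT4 in overexpression flies, against 6.40 and 7.65 in tim-gal4 control flies, and rose by 1.57 (SE 0.19, limma adjusted p = 0.00928). Cyp9c1 measured 6.77 at ZT16 and 6.73 at ZT4 in overexpression flies, against 5.34 and 5.47 in tim-gal4 control flies, and rose by 1.34 (SE 0.17, limma adjusted p = 0.00964). Cyp9c1 lay between 5.19 and 5.52 in all 4 arrays of the knockout and w1118. The rises of the others were 1.06 (SE 0.17, limma adjusted p = 0.0161) for Cyp4p1, 0.94 (SE 0.17, limma adjusted p = 0.0227) for Cyp9b1 and 0.55 (SE 0.13, limma adjusted p = 0.0428) for Cyp12c1.

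The count of 27 called genes depended on the tim-gal4 control and overexpression arrays. It was 9 without the tim-gal4 control ZT4 array, 10 without its ZT16 array, 10 without the overexpression ZT16 array and 14 without the ZT4 one, 14 with no filter on low values and 2 in a fit of these 4 arrays alone. Without both ZT16 arrays that held body tissue markers no gene passed limma's adjusted threshold. That fit had 1 residual degree of freedom and a single array of the tim-gal4 control, so it cannot show which calls hold. The part of those markers in the result was not tested.

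**Figure D2:**
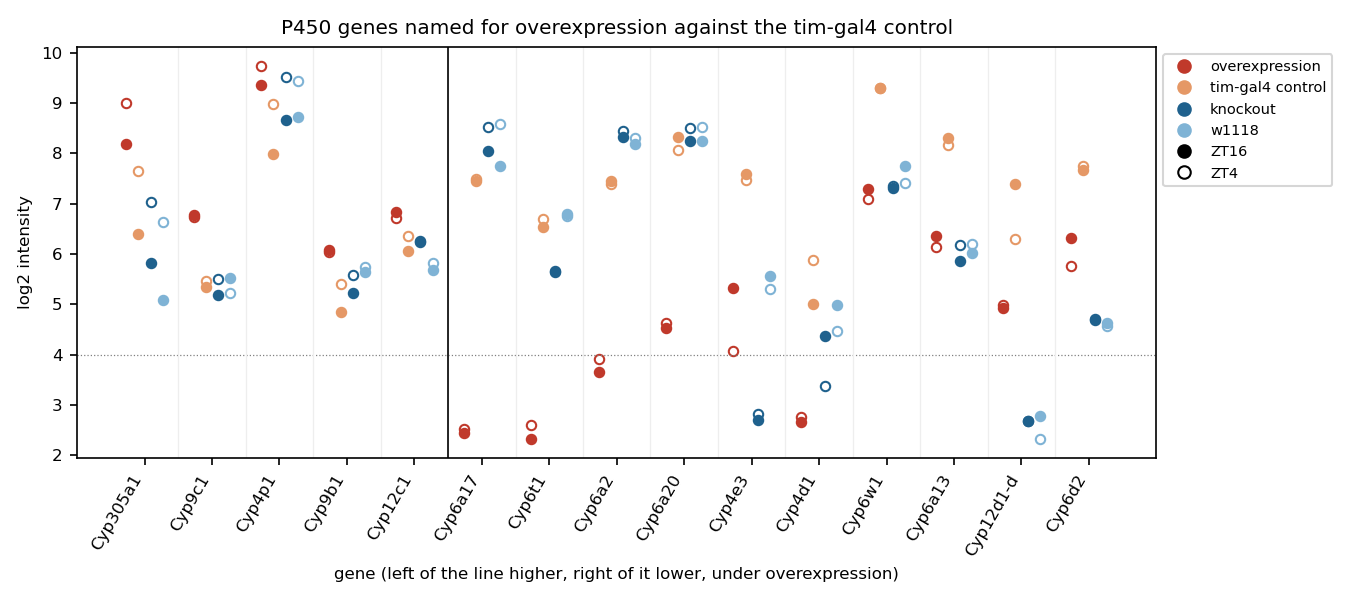
Log2 intensity (vertical axis) of the 5 P450 genes that rose (left of the line) and the 10 with the largest called falls (right of it) in overexpression flies against the tim-gal4 control, on each of the 8 arrays, with filled points for ZT16 and open points for ZT4, and a dotted line at the filter value of 4. For Cyp6a17, Cyp6t1, Cyp6a2 and Cyp6a20 both overexpression points lie below all the others. For Cyp4e3, Cyp6a13, Cyp6d2 and Cyp12d1-d both tim-gal4 control points lie above all the others. For Cyp4d1 and Cyp6w1 both patterns hold.

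Several of these genes neighbour each other on the chromosome. In the RefSeq gene order of the Release 6 assembly, 9 P450 genes follow one another with no other protein-coding gene or pseudogene starting between them. They are Cyp6a22, Cyp6a17, Cyp6a23, Cyp6a19, Cyp6a9, Cyp6a20, Cyp6a21, Cyp6a8 and Cyp317a1. In overexpression flies Cyp6a22, Cyp6a17, Cyp6a20 and Cyp6a8 fell, while Cyp6a23, Cyp6a9 and Cyp6a21 between them were not called. Cyp6a23, which lies next to Cyp6a17, measured 7.62 at ZT16 and 7.71 at ZT4 in overexpression flies, against 6.98 and 7.41 in tim-gal4 control flies, a difference of 0.47 (SE 0.19, limma adjusted p = 0.146). Cyp6a9, on the other side of Cyp6a19, measured 7.24 at ZT16 and 7.06 at ZT4 in overexpression flies, against 6.88 and 6.65 in tim-gal4 control flies, and Cyp6a21 measured 5.82 at ZT16 and 6.53 at ZT4 in overexpression flies, against 5.88 and 6.16 in tim-gal4 control flies. Cyp6a8, an enzyme that hydroxylates lauric acid, measured 3.62 at ZT16 and 3.43 at ZT4 in overexpression flies, against 5.33 and 5.03 in tim-gal4 control flies, and fell by 1.66 (SE 0.13, limma adjusted p = 0.00392). Cyp6a19 and Cyp317a1 stayed below the filter on all arrays. Of the 52 probe sets, 47 carry the suffix of sets designed to match 1 transcript and 5 the suffix of sets that match several transcripts of 1 gene, but binding of the RNA of close Cyp6a copies to each other's probes was not tested.

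**Figure D3:**
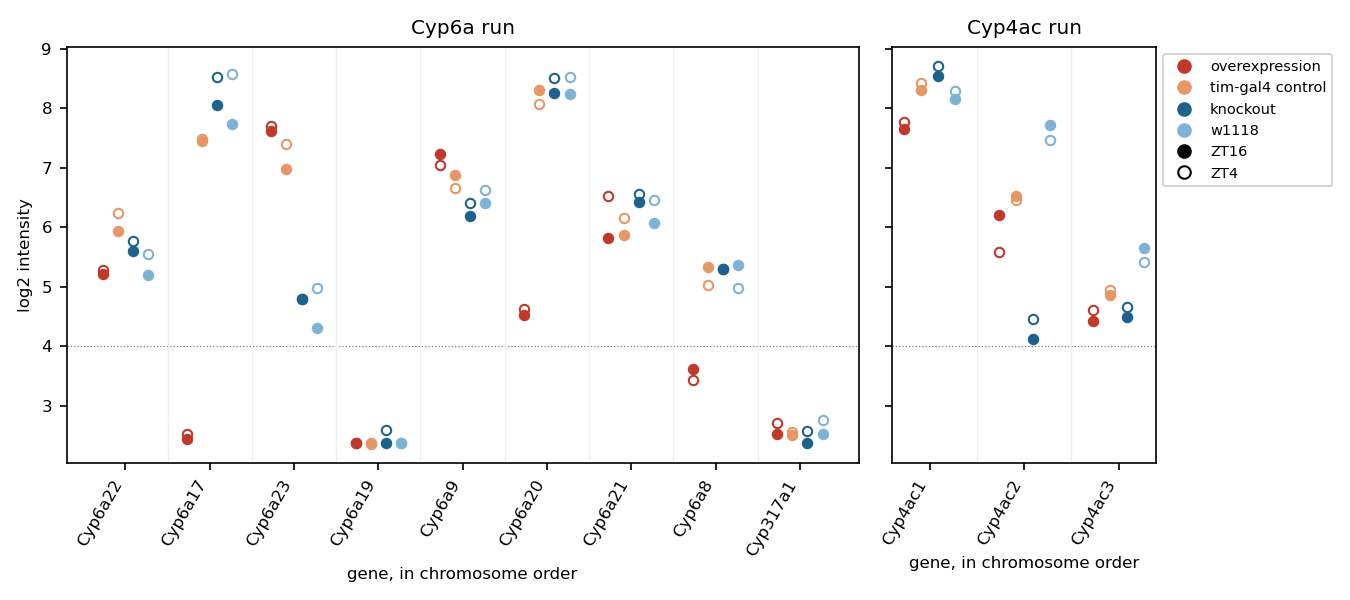
Log2 intensity (vertical axis) of the P450 genes of the Cyp6a run and the Cyp4ac run, in their order on the chromosome, on each of the 8 arrays, with filled points for ZT16, open points for ZT4 and a dotted line at 4. Cyp6a17 and Cyp6a20 are low in overexpression flies while Cyp6a23 and Cyp6a9 between them are not, and Cyp4ac2 is low in knockout flies while Cyp4ac1 beside it is not.

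Against w1118, knockout heads differed in few P450 genes. Of the 52 genes, 4 fell, where 0.819% of all probe sets fell, and 1 rose, where 0.759% of all rose (limma). The same 5 genes were those that differed at least 2-fold at both times, 4 lower (0.783% of all) and 1 higher (0.880% of all). Of the 5, 4 belong to the Cyp4 family. The median difference over the P450 genes was -0.01, beside -0.10 over all probe sets.

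Cyp4ac2 measured 4.12 at ZT16 and 4.46 at ZT4 in knockout flies, against 7.72 and 7.46 in w1118 flies. In overexpression flies it measured 6.21 and 5.59 and in tim-gal4 control flies 6.53 and 6.46 at the same times, so that both knockout arrays were the lowest of the 8 and both w1118 arrays the highest. It fell by 3.30 (SE 0.23, limma adjusted p = 0.00642). Its neighbours in a run of 3 genes did not pass the test: Cyp4ac1 differed by 0.41 (SE 0.10, limma adjusted p = 0.172) and Cyp4ac3 by -0.96 (SE 0.14, limma adjusted p = 0.0538).

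Cyp4e3 was near background in knockout flies, with 2.70 at ZT16 and 2.82 at ZT4, against 5.56 and 5.31 in w1118 flies. Its fall was 2.67 (SE 0.34, limma adjusted p = 0.0347), and its size is not quantitative. Cyp4s3, of unknown substrate, measured 2.92 at ZT16 and 3.42 at ZT4 in knockout flies, against 4.85 and 5.19 in w1118 flies. It fell by 1.85 (SE 0.17, limma adjusted p = 0.0132), again to values near background.

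Cyp6t1 measured 5.66 at ZT16 and 5.65 at ZT4 in knockout flies, against 6.79 and 6.76 in w1118 flies, and fell by 1.12 (SE 0.12, limma adjusted p = 0.0209), a 2.17-fold difference. Cyp4d20 was the gene that rose, with 6.57 at ZT16 and 7.28 at ZT4 in knockout flies, against 5.43 and 6.0 in w1118 flies. Its rise was 1.21 (SE 0.17, limma adjusted p = 0.0498). In overexpression flies Cyp4d20 fell by 1.21 (SE 0.17, limma adjusted p = 0.0130), with 5.72 at ZT16 and 5.91 at ZT4, against 6.94 and 7.11 in tim-gal4 control flies. On average, overexpression flies differed from w1118 flies by 0.10 and knockout flies from tim-gal4 control flies by -0.10 for Cyp4d20. The control strains themselves differed by -1.31, w1118 against the tim-gal4 control. Cyp4e3, Cyp4s3 and Cyp6t1 fell both in knockout flies and in overexpression flies, 3 of the 4 falls in knockout flies and 3 of the 22 in overexpression flies. On average, overexpression flies differed from w1118 flies by -0.73 for Cyp4e3, -1.70 for Cyp4s3 and -4.31 for Cyp6t1. For Cyp4e3 both tim-gal4 control arrays lay above the other 6. Cyp4s3 reached 4 only on the arrays of w1118 and the tim-gal4 control, so its fall in both comparisons was partly set by the filter. Over all probe sets 0.133% fell in both comparisons, 11 of the 68 that fell in knockout flies. Those comparisons rest on different arrays but on 1 shared estimate of the error.

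The count of 5 called genes was 3 with quantile normalization, all of them lower, and 1 with no filter. It was lower without any single array, and 0 in a fit of the 4 arrays of both strains. Without both ZT16 arrays with body tissue markers no gene passed limma's threshold, in a fit that leaves the knockout a single array. The part of those markers was not tested.

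Between ZT16 and ZT4, Cyp6d5 was the P450 gene that passed the test, higher at ZT16, where 0.157% of all probe sets rose and 0.217% fell. It measured 11.48 in overexpression flies, 11.40 in tim-gal4 control flies, 11.23 in knockout flies and 11.40 in w1118 flies at ZT16, against 10.56, 10.57, 10.52 and 10.59 in the same strains at ZT4. The ZT16 and ZT4 arrays did not overlap. Its day-night difference was 0.82 (SE 0.07, limma adjusted p = 0.0499), or 1.76-fold, and the 4 strains gave 0.93, 0.83, 0.71 and 0.81 in the same order. The call lies at the threshold and was lost without any single array, without a filter and with quantile normalization. With trended and robust moderation 5 P450 genes were called, 3 higher and 2 lower at ZT16. The share of all probe sets called in that fit is not given here.

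ZT16 lay above ZT4 in all 4 strains for 8 of the 52 genes (6.78% of all probe sets) and below it for 9 (20.9% of all). Cyp305a1 measured 8.20 in overexpression flies, 6.40 in tim-gal4 control flies, 5.82 in knockout flies and 5.08 in w1118 flies at ZT16, against 9.0, 7.65, 7.03 and 6.63 in the same strains at ZT4. All 4 strains were lower at ZT16, with a difference of -1.21 (SE 0.13, limma adjusted p = 0.0536), short of the threshold. The 3 genes that follow were chosen after their values were seen, for their unadjusted p or known biology. Cyp18a1, which degrades ecdysone, had ZT16 minus ZT4 differences between 0.75 and 1.52 in the 4 strains, and 1.09 in the fit (SE 0.16, limma adjusted p = 0.0777). Its second probe set gave 1.0. Cyp4d21, a sex-biased head gene also known as sxe1 and reported to be under clock control, had differences between 0.48 and 1.77 in the 4 strains and 1.02 in the fit (SE 0.23, limma adjusted p = 0.170). Cyp4p1 was lower at ZT16 in all 4 strains, with a difference of -0.75 in the fit (SE 0.12, limma adjusted p = 0.0963).

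No P450 gene's day-night change in overexpression flies, or in knockout flies, differed from that of the other 3 strains at limma's adjusted threshold, where 0% of all probe sets did in each test. At an unadjusted p under 0.05 there were 3 of the 52 genes for overexpression, each with a limma adjusted p of 0.990, and 0 for the knockout. So small a count can arise at this threshold with no real difference, and the share of all probe sets is not given here. Trended and robust moderation called 0 genes in both tests as well. Leaving out either w1118 array gave called genes for overexpression, and leaving out either tim-gal4 control array gave some for the knockout. Such fits leave that strain a single array, and the share of all probe sets called in them is not given here. No result is drawn from them.

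**Figure D4:**
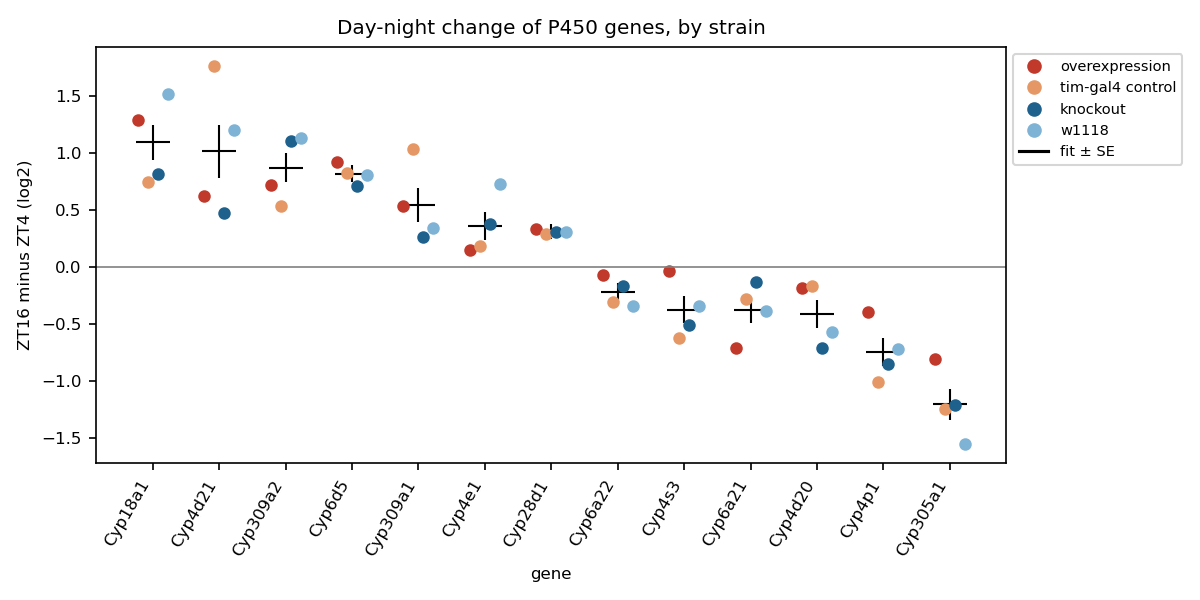
ZT16 minus ZT4 difference in log2 intensity (vertical axis) of the 13 P450 genes with an unadjusted limma p under 0.05 for time of day, with 1 point for each strain and, in black, the fitted difference with its standard error. All 4 strains lie on the same side of 0 for every gene shown, and only Cyp6d5 passed the adjusted threshold. The error behind this p is the disagreement between strains, so the shared side is largely set by the choice of genes. The share of all probe sets at that unadjusted p is not given here.

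Of the 52 genes, Cyp4g1 and Cyp312a1 had the largest fitted day-night differences, and their high values were on the ZT16 arrays with body tissue markers. Cyp4g1 is the enzyme of oenocytes, cells beneath the abdominal cuticle, that makes cuticular hydrocarbons. It measured 3.04 at ZT16 and 3.59 at ZT4 in overexpression flies, against 12.92 at ZT16 and 4.16 at ZT4 in tim-gal4 control flies. In knockout flies it measured 12.78 at ZT16 and 3.94 at ZT4, against 5.37 and 5.45 in w1118 flies. It was called in none of the 4 comparisons, and its fitted ZT16 minus ZT4 difference was 4.24 (SE 1.99, limma adjusted p = 0.299). Cyp312a1 reached 6.14 on the knockout ZT16 array and 4.88 on the tim-gal4 control ZT16 array, and no more than 2.49 on the other 6. Its difference was 1.53 (SE 0.69, limma adjusted p = 0.293). These were the 2 P450 genes of 52 at least 2-fold higher on both of those arrays than on each of the other 6, where 4.48% of all probe sets were. Cyp312a1 passed the filter through those arrays alone, so its place among the 52 was set by the same values. Without the pair of arrays the day-night difference was -0.32 for Cyp4g1 and 0.01 for Cyp312a1. Cyp6a18, below the filter, was above 2.32 on the same arrays only, at 3.07 and 3.33.

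On the same arrays 3 of 5 oenocyte markers reached 4, against 1 of 5 on the other 6 arrays. FASN2, a fatty acid synthase of oenocytes, measured 6.23 on the knockout ZT16 array and 5.12 on the tim-gal4 control ZT16 array, and at most 2.51 elsewhere. FASN3 measured 6.39 and 6.51 on those arrays and at most 2.88 elsewhere. The oenocyte genes eloF and Fad2 were at or near the lowest value on all 8 arrays, and Desat1, which other tissues express too, was high on all 8. The digestive enzyme alphaTry measured 9.83 and 11.2 on those arrays and 2.32 on the other 6, the accessory gland gene Acp98AB 12.2 and 11.6 against at most 4.29, and ocn of the testis 8.51 and 8.33, with no more than 2.33 elsewhere. Of 15 accessory gland genes 14 reached 4 on each of the pair, and of 12 testis genes 10 did on the knockout ZT16 array and 11 on the tim-gal4 control ZT16 array. The part of these tissues in the levels of Cyp4g1 and Cyp312a1 was not tested.

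**Figure D5:**
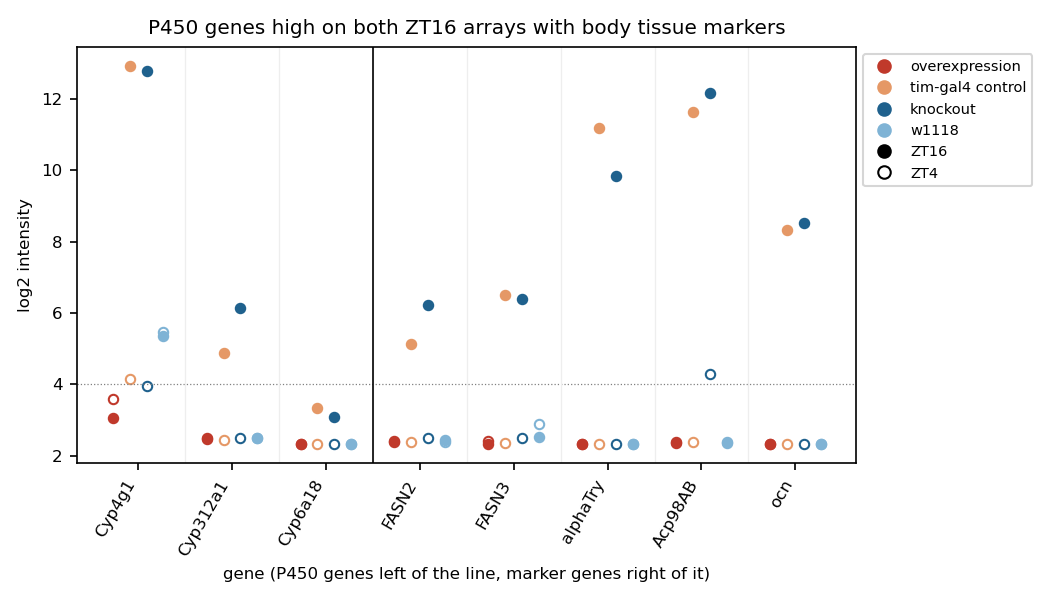
Log2 intensity (vertical axis) of 3 P450 genes (left of the line) and 5 marker genes of oenocytes, gut, accessory gland and testis (right of it) on each of the 8 arrays, with filled points for ZT16 and open points for ZT4. For each gene shown, the filled points of the knockout and of the tim-gal4 control are the highest.

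The control strains also differed from each other, in 20 P450 genes. Against the tim-gal4 control, w1118 flies were lower in 15 of the 52 genes, where 11.0% of all probe sets were lower, and higher in 5, where 19.9% of all were higher (limma). At least 2-fold at both times, 11 genes were lower (3.39% of all) and 0 were higher (3.78% of all). Of the 17 Cyp6 genes 8 were lower and 1 higher, and of the 16 Cyp4 genes 3 were lower and 3 higher. One of the 15, Cyp6a14, passed the filter through the tim-gal4 control arrays alone, which leaves 14 without it. Neuron markers moved in the same comparison: 4 of 5 were higher in w1118 flies and nSyb was lower, with a median of 1.23, and of the fat body markers Lsp2 was higher by 1.26 (SE 0.34, limma adjusted p = 0.0430). Their part in the P450 differences was not tested. This comparison uses the same tim-gal4 control arrays as the overexpression comparison, so genes high or low on those arrays enter both.

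Cyp12d1-d differed by -4.29 (SE 0.30, limma adjusted p = 0.00191), a size that is not quantitative because w1118 flies were near background on its own probe set. It reached 4 only on the arrays of the tim-gal4 control and overexpression, so this difference was partly set by the filter. The probe set of both Cyp12d1-d and Cyp12d1-p differed by -2.77 (SE 0.47, limma adjusted p = 0.0136). Cyp6d2 measured 4.62 at ZT16 and 4.56 at ZT4 in w1118 flies, against 7.67 and 7.74 in tim-gal4 control flies, and was lower by 3.11 (SE 0.18, limma adjusted p = 0.00118). Cyp6a23 measured 4.31 at ZT16 and 4.97 at ZT4 in w1118 flies, against 6.98 and 7.41 in tim-gal4 control flies. It differed by -2.56 (SE 0.19, limma adjusted p = 0.00207), and with 4.80 and 4.79 in knockout and 7.62 and 7.71 in overexpression flies it split the w1118 strains from the yw strains. Cyp6a13 differed by -2.12 (SE 0.17, limma adjusted p = 0.00218), Cyp4e3 by -2.09 (SE 0.34, limma adjusted p = 0.0121) and Cyp6w1 by -1.73 (SE 0.13, limma adjusted p = 0.00216). These were followed by Cyp4d20, Cyp6g1, Cyp305a1 and Cyp6d4, lower in w1118 flies by 1.08 to 1.31.

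The genes higher in w1118 flies were Cyp4ac2, Cyp18a1, Cyp6a2, Cyp4ac3 and Cyp4p1. Cyp4ac2 differed by 1.09 (SE 0.23, limma adjusted p = 0.0242) and its neighbour Cyp4ac3 by 0.63 (SE 0.14, limma adjusted p = 0.0267). Cyp6a2 differed by 0.83 (SE 0.12, limma adjusted p = 0.00914) and Cyp4p1 by 0.60 (SE 0.17, limma adjusted p = 0.0495). The Cyp18a1 call of 0.88 (SE 0.22, limma adjusted p = 0.0361) did not hold on its second probe set, which differed by -0.63 (SE 0.21, limma adjusted p = 0.0751), so no direction is given for this gene between strains. The count of 20 called genes was 7 without the w1118 ZT16 array, 8 without the tim-gal4 control ZT16 array, 12 without its ZT4 array or with no filter and 3 in a fit of the 4 arrays. Without both arrays with body tissue markers no gene passed limma's threshold, in a fit that leaves the tim-gal4 control a single array.

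Both arrays of the tim-gal4 control lay above the other 6 for 13 of the 52 genes (5.61% of all probe sets) and below for 0 (13.6% of all). The overexpression arrays lay below the other 6 for 15 (10.7% of all) and above for 8 (22.0% of all). Knockout arrays lay above for 5 (2.95% of all) and below for 3 (8.12% of all), and w1118 arrays above for 4 (14.8% of all) and below for 5 (4.33% of all). Cyp6a14 passed the filter through the tim-gal4 control arrays alone and Cyp4p3 through the knockout arrays alone, so their places above the others were partly set by the filter, and 12 and 4 genes are left without them.

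Of 16 listed partners and regulators of P450 enzymes, 12 had a probe set and 11 passed the filter. Cyt-b5, the cytochrome that passes electrons to P450 enzymes, measured 11.2 at ZT16 and 11.5 at ZT4 in overexpression flies, against 10.6 and 10.9 in tim-gal4 control flies, and rose by 0.67 (SE 0.11, limma adjusted p = 0.0171). Fdx2, a mitochondrial ferredoxin, rose by 0.70 (SE 0.11, limma adjusted p = 0.0157), and Cyt-b5-r, a cytochrome b5 related gene, fell by 0.92 (SE 0.12, limma adjusted p = 0.0110). None of the 11 was called between knockout and w1118 or between ZT16 and ZT4. In w1118 flies against the tim-gal4 control, Fdx1 and cnc, a regulator of the response to toxins, were higher by 0.97 and 0.72, and Cyt-b5-r and maf-S, the partner of cnc, were lower by 0.98 and 0.51.

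The cyclophilin Cyp1 measured 12.26 at ZT16 and 12.28 at ZT4 in overexpression flies, against 11.84 and 11.87 in tim-gal4 control flies, and rose by 0.42 (SE 0.10, limma adjusted p = 0.0382). Cyp40 ranged from 5.21 to 5.61 and was called in none of the comparisons.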

How the data were processed

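RNA of fly heads was hybridized to Affymetrix Drosophila Genome 2.0 arrays, on which a set of short probes reads each transcript. The deposited values are log2 intensities per probe set, and GCRMA, which corrects background from probe sequence and normalizes the arrays together, is named per the submitters' processing notes. Its version and settings are not given in the sources used here. No raw intensity was used, and no column lacked a sample (0).

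Symbols came from the platform annotation, and gene order from RefSeq, used for neighbours only. Of 18952 probe sets, 183 controls were left out, and 8300 of the other 18769 reached 4 on at least 2 of 8 arrays. They were fitted with limma 3.58.1 in R 4.3.3 on strain and time of day, with 3 residual degrees of freedom, and with a term for the day-night change of 1 strain, with 2. P-values were adjusted over the 8300 probe sets by the Benjamini-Hochberg method, and tests were two-sided. The scripts were tested on simulated data. Tables and figures were made with Python 3.11.15, pandas 2.3.3, numpy 2.4.6 and matplotlib 3.10.9.

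Genes were named where called, up to the 10 largest rises and 10 largest falls in a comparison (the 3 largest differences where fewer than 3 were called), where they had the 10 highest means, where they led their family and where they neighbour such a gene. Members and lists were chosen with earlier results of these data known. With 8 arrays and no replicates, precision is limited by their number.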

Additional observations from a re-analysis of the deposited data

How the results depend on the processing

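The day-night difference of Cyp4g1, not called in any fit, was 4.24 with all arrays and -0.32 without both ZT16 arrays with body tissue markers. No other named difference changed sign under an alternative that was run, but the second probe set of Cyp18a1 had the opposite sign between the control strains. The called genes numbered 27 for overexpression against the tim-gal4 control, 5 for knockout against w1118, 1 for ZT16 against ZT4 and 20 for w1118 against the tim-gal4 control. With no filter on low values they numbered 14, 1, 0 and 12, and 1 for the day-night change in knockout flies, which had 0 with the filter. Quantile normalization gave 3 for the knockout and 0 for time of day. Trended and robust moderation gave 5 for time of day. Without both ZT16 arrays with body tissue markers no gene passed limma's adjusted threshold in these 4 comparisons. That fit had 1 residual degree of freedom and a single array each of the knockout and the tim-gal4 control, so it cannot show which calls hold. Fits of the 4 arrays of each strain pair gave 2 for overexpression, 0 for the knockout and 3 for w1118 against the tim-gal4 control.

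Leaving out 1 array at a time left 9 to 26, 0 to 3, 0 to 0 and 7 to 18 called genes, 0 to 3 for the day-night change in overexpression flies and 0 to 2 for that in knockout flies. Such fits leave 1 strain with a single array, which is assumed to vary like the other strains. The share of all probe sets called in the alternative fits is not given here. The cause of the changes in called genes was not tested, beyond the fewer arrays or the larger number of probe sets in the fit. No paired analysis was possible because each strain and time has 1 array and the labels give no replicate numbers. Values near 2.32 limit every statement on low genes.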

Other observations

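The enzymes that act after P450 enzymes in the handling of toxins, glutathione S-transferases and UDP-glycosyltransferases, were counted in the same fit. Of 34 transferase genes with Gst symbols, 26 passed the filter. In overexpression flies against the tim-gal4 control, 6 of them rose and 5 fell, where 14.3% of all probe sets rose and 6.18% fell, with a median difference of 0.08, beside 5 rises and 22 falls and a median of -0.52 for the P450 genes. Of 35 genes with Ugt symbols, 14 passed, and 4 of these rose and 0 fell, with a median of 0.21. The difference between these families was not tested. Between knockout and w1118, no Gst gene was called and 1 Ugt gene fell, and at ZT16 against ZT4, 1 Gst gene and 2 Ugt genes were lower (limma), where 0.819% and 0.217% of all probe sets were lower in those comparisons. In w1118 flies against the tim-gal4 control, 7 Gst genes were higher and 2 lower, and 2 Ugt genes were higher and 1 lower, where 19.9% of all probe sets were higher and 11.0% lower.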
